A study of Mus musculus with 6 samples.

Results

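Fibronectin, 8 of its cell surface receptors and gamma actin were followed in cerebellar RNA from mice on a low-Mn or a normal-Mn diet. The members are 10 genes named by function from the 53715 mouse genes of the count table, and all 10 were among the 16123 genes with enough counts to be tested. They are Fn1, the 4 integrin alpha subunits Itga4, Itga5, Itga8 and Itgav, the 3 beta subunits Itgb1, Itgb3 and Itgb5, the syndecan Sdc4 and the actin gene Actg1. Fn1 and Actg1 were listed because their lower level on the low-Mn diet was already known from these libraries, so their diet difference is described with no test. The receptors were listed for what their proteins bind. Polyadenylated RNA was sequenced from 1 cerebellum per mouse, in 3 male C57BL/6 mice per diet. The animals were 4 weeks old at purchase, although the labels call them adult. One group received a purified diet labelled 0 ppm Mn, which held at most traces of Mn when measured, and the other a purified diet with 35 ppm Mn, in both cases for 2 weeks. The mice are given as biological replicates in the methods but as technical triplicates in a figure legend, and if the latter held, the p-values here would measure only the spread between libraries.

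Fibronectin is a large secreted glycoprotein that cells assemble into fibrils outside the membrane, and it also circulates in blood plasma. Integrins are dimers of an alpha and a beta subunit that bind matrix proteins outside the cell and, through talin and kindlin, the actin cytoskeleton inside it. The alpha 5 subunit pairs with the beta 1 subunit in the main receptor that assembles fibronectin fibrils, while the alpha v subunit pairs with several beta subunits. In the brain, fibronectin is known best from the meninges, blood vessels and the perivascular matrix, with little in the neuropil.

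The 6 libraries held from 14548336 to 21277469 counts. Over all genes, 96 of 16123 passed the diet test (0.595%), 67 of them higher on the low-Mn diet (0.416%) and 29 lower. With upper quartile scaling the split was 53 higher and 37 lower. Neuron, glia, choroid plexus, vessel and meninges markers were all present, with none at 0 in every library.

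The sequence that most of these integrins bind is short. In Fn1 (ENSMUSG00000026193, chromosome 1, 71585520 to 71653200, minus strand, GRCm38) the coding sequence of the longest coding transcript has 7434 bases in all, and in-frame codons for Arg-Gly-Asp occur 2 times in it. The first run starts at codon 1614, counted from the start codon, and lies in exon 30 at chr1:71606722-71606778. It is the Arg-Gly-Asp site of the cell-binding region, which alpha 5 and alpha v integrins recognise. The second run starts at codon 2181 and lies in exon 40 at chr1:71597419-71597475. Both stretches are shown 5′ to 3′ on the coding strand, with the 9 bases of the 3 codons in capitals.
Fn1 first Arg-Gly-Asp codons: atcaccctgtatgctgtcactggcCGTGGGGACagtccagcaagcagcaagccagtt
Fn1 second Arg-Gly-Asp codons: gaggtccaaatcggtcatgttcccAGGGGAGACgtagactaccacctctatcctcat

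The Fn1 gene makes several isoforms, which the counts per gene add together. GENCODE M21 gives Fn1 17 transcripts, of which 9 are coding. Of the 7 coding transcripts that span them, an exon of 270 bases (chromosome 1, 71603660 to 71603929) is skipped in 3 and an exon of 273 bases (71613763 to 71614035) in 6. These are the extra domain exons A and B, which plasma fibronectin from the liver lacks. The values below cannot tell the isoforms apart.

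Actg1 (ENSMUSG00000062825, chromosome 11, 120345690 to 120348542, minus strand) encodes gamma actin, a cytoplasmic actin of nearly every cell. Its coding sequence has the same length as that of beta actin, Actb, at 1128 bases, and is identical to it at 88.7% of positions. The first 60 coding bases (Actg1 at chr11:120348032-120348091, Actb at chr5:142905627-142905686, both in exon 2 and on the minus strand) are shown because they carry the known difference between the proteins at their start. Capitals mark the 9 positions at which they differ.
Actg1 first coding bases: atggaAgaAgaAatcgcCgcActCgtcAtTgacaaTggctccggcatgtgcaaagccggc
Actb first coding bases: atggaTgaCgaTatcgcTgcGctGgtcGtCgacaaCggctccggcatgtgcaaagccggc
Among all 50-base stretches of the annotated transcripts of Actg1, 37.4% also occur in a transcript of another gene. Gm12715, Gm8399 and Actg-ps1 hold most of them, so the division of reads between Actg1 and these genes is uncertain to that extent. The share was 2.51% for Fn1 and at most 7.51% (Itga4) for the receptors, and it was 0 for Itga5, Itgb1 and Sdc4. In Fn1 (2.5% of its exon bases), Itga4 (8.04%), Itga8 (5.05%) and Itgav (5.9%), part of the exons is overlapped by a gene on the opposite strand.

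Fn1 was lower in all 3 low-Mn mice than in any normal-Mn mouse. Its level in CPM, the counts scaled to a common library total and normalized by TMM factors, was 63.8, 50.7 and 56.0 in low-Mn replicates 1 to 3 and 81.1, 75.6 and 70.5 in normal-Mn replicates 1 to 3. The low-Mn mean was 56.8 ± 6.59 and the normal-Mn mean 75.8 ± 5.32 (SD, n = 3 mice each). The highest low-Mn library, at 63.8, lay below the lowest normal-Mn library, at 70.5, and the diets were separated in this direction in 8.32% of all tested genes. The fitted log2 fold change (low-Mn against normal-Mn) was -0.41 (standard error 0.0725), a change of -24.9%. When each library was left out in turn it ran from -0.51 without low-Mn replicate 1 to -0.34 without low-Mn replicate 2. In bulk tissue, fewer cells of a type that makes fibronectin and less Fn1 RNA per cell cannot be told apart.

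**Figure D1:**
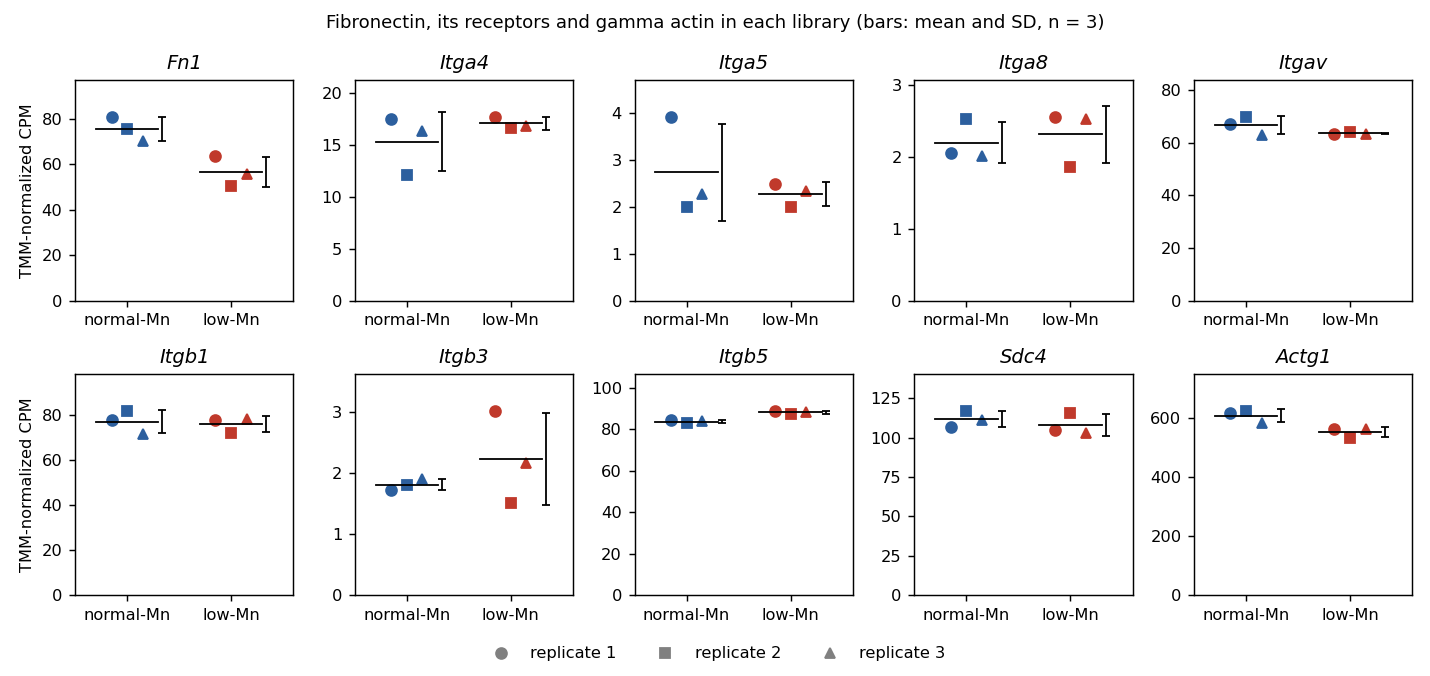
TMM-normalized CPM of the 10 genes in each library, for 3 normal-Mn (blue) and 3 low-Mn (red) mice, with replicate numbers as symbols, horizontal bars for the means and error bars for the SD. Each vertical axis starts at 0, and in Fn1 the low-Mn points lie between 50.7 and 63.8 and the normal-Mn points between 70.5 and 81.1.

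Within a diet, Fn1 also varied more than most genes of its level. Its SD of log2 CPM around the diet means was 0.137, larger than in 98.0% of the 500 tested genes nearest to it in mean level, whose median SD was 0.0677. Low-Mn replicate 1 was the highest of its diet and low-Mn replicate 2 the lowest. No other member stood so high in this respect, and Itga4 came next with an SD of 0.202, above 89.8% of its neighbours in level.

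None of the 8 receptors passed edgeR's quasi-likelihood test between the diets at an adjusted p under 0.05, where 0.595% of all tested genes did. Their adjusted p ran from 0.581 to 0.946 (edgeR, Benjamini-Hochberg over all genes tested), and 0 of the 8 had an unadjusted p under 0.05. Fitted values were above 0 for 4 of them and below 0 for the other 4, with a median log2 fold change of 0.026 against -0.0025 over all genes tested. By limma-voom, which called 0.391% of all genes, and by DESeq2, which called 1.92% of those it gave an adjusted p, 0 of the 8 passed as well, although DESeq2 gave 4 of them no adjusted p. The intervals given for each receptor bound the differences that remain possible, and do not show that the diets were equal.

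**Figure D2:**
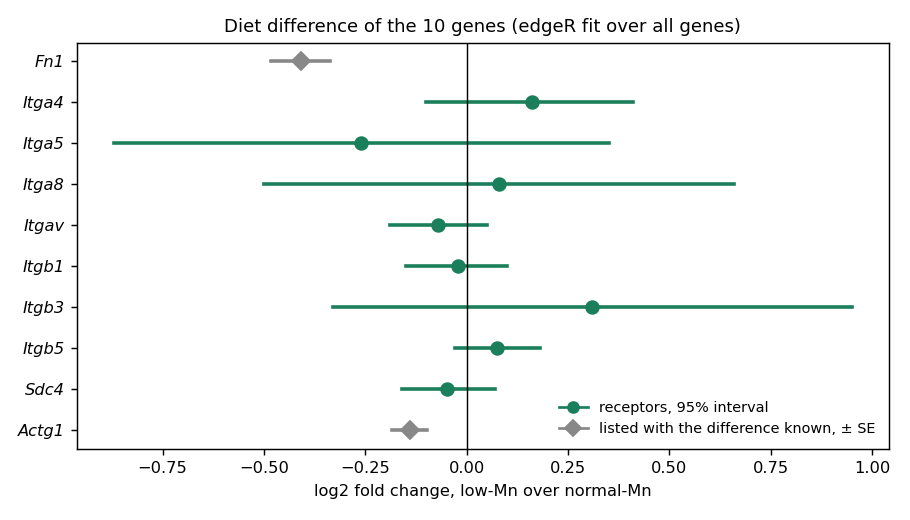
Fitted log2 fold change of the 10 genes (horizontal axis, low-Mn against normal-Mn), with 95% intervals for the 8 receptors (green) and ± 1 standard error for Fn1 and Actg1 (grey), which were listed with their difference known. All 8 receptor intervals include 0, and they are widest for Itga5, Itga8 and Itgb3.

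Of the alpha subunits, Itgav (ENSMUSG00000027087, chromosome 2, 83724397 to 83806916, plus strand), the partner of the beta 3, beta 5, beta 6 and beta 8 subunits as well as of beta 1, was the most abundant of the 4. Its CPM was 63.2, 63.9 and 63.3 in low-Mn replicates 1 to 3 and 67.1, 69.9 and 62.9 in normal-Mn replicates 1 to 3. The low-Mn libraries lay close together, and normal-Mn replicate 3 was just below them. It had a log2 fold change of -0.07 (95% interval -0.19 to 0.05, adjusted p = 0.68 from edgeR), which was -0.035 without normal-Mn replicate 2 and -0.11 without normal-Mn replicate 3.

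Itga4 (ENSMUSG00000027009, chromosome 2, 79255426 to 79333123, plus strand) pairs with the beta 1 subunit in a receptor that immune cells use to bind fibronectin and the vascular adhesion molecule Vcam1. Its CPM was 17.7, 16.6 and 16.8 on the low-Mn diet and 17.5, 12.1 and 16.3 on the normal-Mn diet. Normal-Mn replicate 2 was the low library, and the rest lay between 16.3 and 17.7. The log2 fold change of 0.16 (95% interval -0.10 to 0.41, adjusted p = 0.665 from edgeR) became 0.011 without that library.

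Itga5 (ENSMUSG00000000555, chromosome 15, 103344286 to 103366763, minus strand), the alpha subunit of the main fibronectin receptor, was rare, with between 29 and 84 counts in a library. Its CPM was 2.50, 1.99 and 2.34 on the low-Mn diet and 3.93, 2.0 and 2.28 on the normal-Mn diet. Normal-Mn replicate 1 was high and the other libraries lay within 1.99 to 2.50. Its log2 fold change of -0.26 (95% interval -0.87 to 0.35, adjusted p = 0.783 from edgeR) turned to 0.097 without normal-Mn replicate 1.

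Itga8 (ENSMUSG00000026768, chromosome 2, 12106632 to 12301922, minus strand), which pairs with the beta 1 subunit and also binds nephronectin, had between 27 and 53 counts in a library. Its CPM was 2.56, 1.86 and 2.53 on the low-Mn diet and 2.06, 2.52 and 2.01 on the normal-Mn diet. The diets overlapped over almost their whole range, and the log2 fold change was 0.079 (95% interval -0.50 to 0.66, adjusted p = 0.946 from edgeR). It was 0.00076 without low-Mn replicate 1 and 0.21 without low-Mn replicate 2. At these counts a difference of the size seen in Fn1 lies within the interval of both Itga5 and Itga8.

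Among the beta subunits, Itgb1 (ENSMUSG00000025809, chromosome 8, 128685654 to 128733200, plus strand) is the common partner of most alpha subunits. Its CPM was 77.6, 71.8 and 78.3 on the low-Mn diet and 77.9, 81.7 and 71.5 on the normal-Mn diet. Each diet had 1 low library, at 71.8 and 71.5, and 2 that were clearly higher. The fit gave a log2 fold change of -0.022 (95% interval -0.15 to 0.10, adjusted p = 0.929 from edgeR), which turned to 0.015 when low-Mn replicate 2 was left out and to 0.022 when normal-Mn replicate 2 was.

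Itgb5 (ENSMUSG00000022817, chromosome 16, 33829665 to 33949338, plus strand) pairs with the alpha v subunit alone and binds vitronectin as well as fibronectin. It was the only receptor whose libraries did not overlap between the diets, as they did not in 8.79% of all genes tested in this direction and in 17.1% in either. Its CPM was 88.7, 87.3 and 88.0 on the low-Mn diet and 84.2, 82.7 and 83.7 on the normal-Mn diet. Replicates of a diet were closer together than in nearly any gene of its level, with an SD of log2 CPM of 0.0121, larger than in 0.6% of its 500 neighbours. This SD rests on few libraries, with 1271 to 1800 counts each for Itgb5, and was not set against counting noise. The log2 fold change was 0.075 (95% interval -0.03 to 0.18, adjusted p = 0.581 from edgeR), from 0.063 to 0.081 over the 14 alternative fits.

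Itgb3 (ENSMUSG00000020689, chromosome 11, 104608000 to 104670476, plus strand), which pairs with the alpha v subunit and, in platelets, with the alpha IIb subunit, had between 22 and 52 counts in a library. Its CPM was 3.02, 1.51 and 2.16 on the low-Mn diet and 1.73, 1.81 and 1.90 on the normal-Mn diet. The 3 low-Mn libraries spanned all of the normal-Mn ones. Its log2 fold change of 0.31 (95% interval -0.33 to 0.95, adjusted p = 0.751 from edgeR) was 0.025 without low-Mn replicate 1.

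Sdc4 (ENSMUSG00000017009, chromosome 2, 164424247 to 164443887, minus strand), a heparan sulfate proteoglycan that binds the heparin-binding region of fibronectin beside the integrins, was the most abundant receptor. Its CPM was 105, 116 and 103 on the low-Mn diet and 107, 117 and 111 on the normal-Mn diet. Replicate 2 was the highest library in both diets. Its log2 fold change was -0.049 (95% interval -0.16 to 0.07, adjusted p = 0.785 from edgeR), and it ran from -0.1 without low-Mn replicate 2 to -0.014 without low-Mn replicate 3.

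Actg1 was lower in all 3 low-Mn mice than in any normal-Mn mouse, by less than Fn1. Its CPM was 560, 530 and 560 in low-Mn replicates 1 to 3 and 616, 622 and 582 in normal-Mn replicates 1 to 3. The means were 550 ± 17 and 607 ± 21 (SD, n = 3 mice each), and the log2 fold change was -0.14 (standard error 0.0432), a change of -9.33%. Such a separation in this direction was found in 8.32% of all tested genes.

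Beta actin had a fitted value of much the same size and did not pass the test. No test is given for Actg1, so this does not set the 2 actins apart. Its gene Actb stood at 579, 548 and 545 CPM on the low-Mn diet and at 595, 654 and 576 CPM on the normal-Mn diet, where the highest low-Mn library overlapped the lowest normal-Mn one. Its log2 fold change was -0.13 (standard error 0.0482, adjusted p = 0.279 from edgeR). Gamma actin made up between 48.7% and 50.9% of the sum of the 2 cytoplasmic actins in CPM, with overlapping diets (mean 49.7% low-Mn, 49.9% normal-Mn). The muscle actins Acta2 and Acta1 were low, at 5.90 and 1.09 CPM on average in low-Mn mice and 4.73 and 0.882 CPM in normal-Mn mice, and neither passed (adjusted p = 0.57 and 0.822 from edgeR).

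The 10 genes covered a wide range of levels once divided by length. In CPM per kilobase of merged exons, averaged over the 6 libraries, Actg1 stood at 218 ± 13.3, Sdc4 at 43.2 ± 2.30, Itgb5 at 24.1 ± 0.709 and Itgb1 at 18.7 ± 0.982 (SD, n = 6 libraries). Itgav followed at 6.05 ± 0.262 and Fn1 at 5.67 ± 0.999. The rarest were Itga4 at 1.16 ± 0.148, Itga5 at 0.508 ± 0.147, Itgb3 at 0.343 ± 0.0905 and Itga8 at 0.306 ± 0.0429.

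From Actg1 down to Itgav, and again from Fn1 to Itga5, neighbours in this order did not overlap in any library. Itgav and Fn1 did overlap, with a ratio of means of 1.07, and Itgav was the higher in 4 of 6 libraries. In level per length, Fn1 lay below Itgav in every low-Mn library (4.34 to 5.46 against 5.89 to 5.95). Itga5 and Itgb3, and Itgb3 and Itga8, also overlapped. The order of the last pair changed when the longest coding transcript was used as length.

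**Figure D3:**
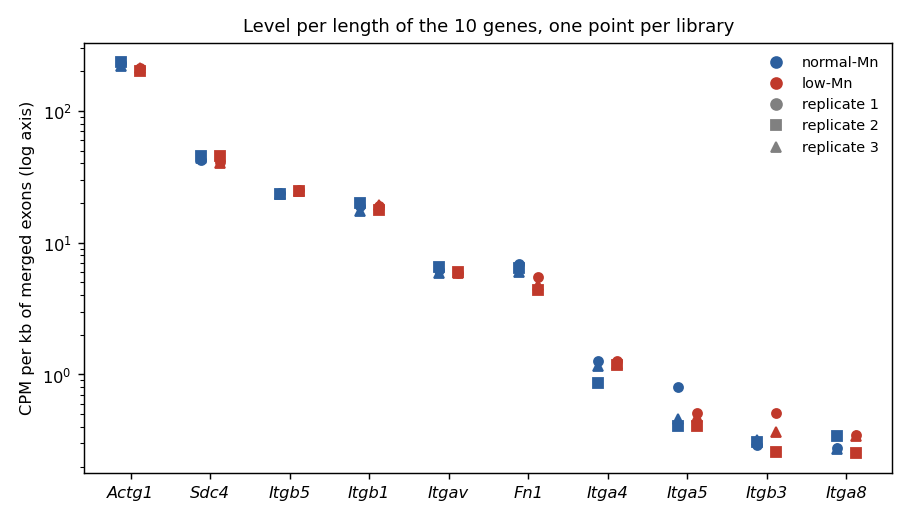
CPM per kilobase of merged exons of the 10 genes on a log axis, in order of their mean, with 1 point per library (blue, normal-Mn; red, low-Mn). Actg1 lies near 218 and Itga8 near 0.306, and Itgav and Fn1 overlap.

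The alpha and beta subunits differed in summed level. The 4 alpha subunits together had 8.03 ± 0.301 CPM per kilobase and the 3 beta subunits 43.2 ± 1.17 (SD, n = 6 libraries). Itgav gave from 72.8% to 80.1% of the alpha sum. Itgb5 gave from 53.4% to 57.9% of the beta sum and Itgb1 from 41.5% to 45.9%. The 12 alpha subunits known to pair with the beta 1 subunit summed to 34.3 ± 0.787, led by Itga3, a laminin receptor subunit, at 12, so that Itgb1 was from 0.503 to 0.594 times their sum. The diets overlapped in each of these sums. The ratio of the beta to the alpha sum was 5.44 to 5.60 in low-Mn and 5.03 to 5.37 in normal-Mn libraries, without overlap. The nearest libraries were close and the ratio was not tested. Single genes separated in either direction in 17.1% of those tested.

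Relative to its receptors, Fn1 differed between the diets as it did alone. Fn1 over Itgb1, per kilobase, was 0.287, 0.247 and 0.250 in low-Mn replicates 1 to 3 and 0.364, 0.323 and 0.344 in normal-Mn replicates 1 to 3. The ratios to Itgav, Itgb5 and Sdc4 did not overlap between the diets either. For Sdc4 the nearest libraries were close, at 0.132 on the low-Mn and 0.138 on the normal-Mn diet. These ratios contain the level of Fn1, which was known when it was listed, and add no test of it.

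Markers of meninges and fibroblasts, like Fn1, summed lower in every low-Mn library than in any normal-Mn one. So did those of oligodendrocytes, astrocytes and microglia (see Other observations), whereas the choroid plexus sums overlapped. Of 20 markers of meninges and fibroblasts, 18 had a fitted value below 0 and 8 an unadjusted p under 0.05. Their median log2 fold change was -0.19, against -0.0025 over all genes tested. No share of all genes is given for such counts, here or for the other lists, so they are a description only. Of the 20, 1 fell, against 0.18% of all tested genes, the growth factor gene Igf2 (log2 fold change -0.26, adjusted p = 0.0432 from edgeR). The authors had reported Igf2 as lower in these libraries, and the marker lists were chosen with earlier results known. This count thus adds no test. Igf2 is uncertain, with 62.1% of its 50-base stretches found elsewhere, and of the 6 fits without 1 library it passed in 1, without normal-Mn replicate 3. With limma-voom its adjusted p was 0.059. The 20 markers summed to a CPM of 527, 439 and 491 in low-Mn replicates 1 to 3 and 567, 602 and 535 in normal-Mn replicates 1 to 3, with no marker at 0 in every library. Low-Mn replicate 2 was the lowest and low-Mn replicate 1 the highest of its diet, as in Fn1, whereas among normal-Mn libraries replicate 2 had the highest sum and replicate 1 the highest Fn1. Fn1 per 100 CPM of these markers was 12.1, 11.5 and 11.4 on the low-Mn diet and 14.3, 12.6 and 13.2 on the normal-Mn diet. These values did not overlap, but they contain the level of Fn1, which was known when it was listed, and add no test of it.

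Of 12 choroid plexus markers, 11 had a fitted value below 0 and 9 an unadjusted p under 0.05, with a median log2 fold change of -0.26. Of these 12, 3 fell, Kl, Ace and Sostdc1, beside 0.18% of all tested genes that fell. The authors had reported Kl and Ace as lower in these libraries, and this list was chosen with earlier results known. The count is thus a description and adds no test. Kl, which encodes klotho, had a fitted difference of -0.51 on a log2 scale (edgeR, adjusted p = 0.00183). Ace, which converts angiotensin, had -0.37 (adjusted p = 0.01) and did not pass when low-Mn replicate 2 was left out (0.0755). Sostdc1, which encodes a secreted inhibitor of BMP signals, had -0.51 (adjusted p = 0.0362) and passed in 1 of the 6 fits without 1 library, the others reaching 0.147, and did not pass with limma-voom (0.0566). The summed CPM of the list ran from 2320 to 2860 in low-Mn and from 2680 to 3250 in normal-Mn libraries, which overlap. Fn1 per 100 CPM of these markers was 2.18 to 2.26 and 2.33 to 2.71, without overlap. This ratio too contains the known level of Fn1 and adds no test of it. The part of the meninges and choroid plexus in the Fn1 difference was not tested.

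The vascular markers did not share this direction. Of 16 endothelial markers none passed (edgeR), with 2 at an unadjusted p under 0.05, 11 fitted values above 0 and a median of 0.058. Their summed CPM was 398 to 408 on the low-Mn and 375 to 400 on the normal-Mn diet. Of 12 mural cell markers none passed either, with 2 at an unadjusted p under 0.05, a median of 0.098 and sums of 237 to 251 and 231 to 246.

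**Figure D4:**
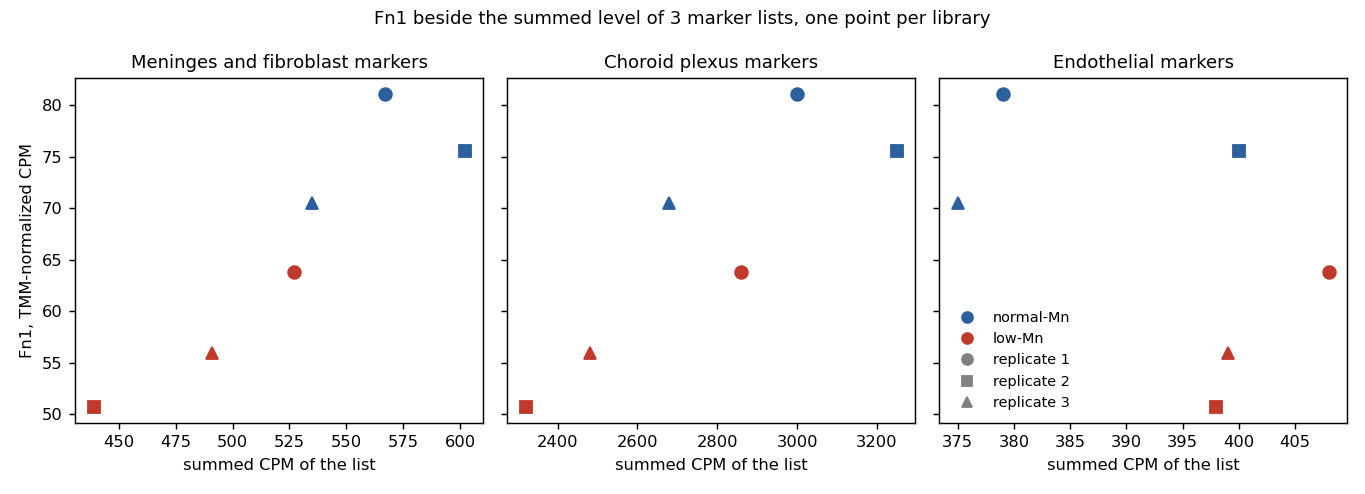
TMM-normalized CPM of Fn1 (vertical axis) beside the summed CPM of the markers of meninges and fibroblasts, choroid plexus and endothelial cells (horizontal axes), with 1 point per library (blue, normal-Mn; red, low-Mn; symbols, replicate). Low-Mn replicate 2 has the lowest Fn1, at 50.7, and the lowest meningeal and choroid plexus sums, at 439 and 2320, whereas the endothelial sums lie between 375 and 408.

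The genes outside the list that were most like Fn1 over the 6 libraries were sought among 10423 genes with a mean CPM of at least 10. The 5 with the highest Pearson correlation of log2 CPM were Slc35a1, the transporter of CMP-sialic acid into the Golgi (r = 0.988), Pramef8 (0.986), the translation initiation factor gene Eif2s3x (0.983), the antisense transcript 2810001G20Rik (0.983) and the lysosomal protease gene Ctsl (0.981). The points are the same 6 libraries in each case, and the values are given as a description only. The diet means were left in, so the known diet difference of Fn1 enters this ranking. With the diet means taken out, r ran from 0.925 (2810001G20Rik) to 0.985 (Eif2s3x) in these 5 genes. Eif2s3x and Ctsl are uncertain, as 34.6% and 26.3% of their 50-base stretches occur in other genes. The genes most like Itgb1 were Cep85, Ipp, Adck1, Zbtb24 and Sec22a, with r from 0.956 to 0.965.

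The rest of the adhesion and actin machinery was read in 6 lists chosen by function, which held 146 distinct genes that were tested. Of these, 1 passed the test (0.595% of all tested genes did). It was Ezr, which encodes ezrin, a linker of actin to the plasma membrane that is also abundant in choroid plexus. The authors had reported Ezr as lower in these libraries, and the lists were chosen with earlier results known. The count thus adds no test. Ezr was lower on the low-Mn diet, at 38.8 ± 0.537 against 50.4 ± 6.10 CPM (SD, n = 3 mice each). The fitted value was -0.38 on a log2 scale (edgeR, adjusted p = 0.0284). Its libraries stood at 39.2, 38.2 and 39.1 on the low-Mn diet and at 53.5, 54.4 and 43.4 on the normal-Mn diet. The low-Mn libraries were nearly equal, and normal-Mn replicate 3 was nearest to them. Of the 6 edgeR fits that left out 1 library, Ezr passed only in that without normal-Mn replicate 3, and its adjusted p reached 0.121 in the others. With limma-voom it was 0.0538.

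Of the other integrin subunits, 14 of 19 had enough counts and none passed edgeR's test (2 at an unadjusted p under 0.05), with 10 fitted values below 0 and a median log2 fold change of -0.14. Itga7, a laminin receptor subunit, had 76.6 ± 3.25 CPM on the low-Mn and 68.6 ± 5.56 on the normal-Mn diet (log2 fold change 0.16, adjusted p = 0.293 from edgeR). Itgb8, which pairs with the alpha v subunit to activate TGF-beta, had 96.6 ± 10.7 and 108 ± 5.36 (-0.16, adjusted p = 0.299). Itga6, another laminin receptor subunit, had -0.16 (0.447), and Itgal, a leukocyte subunit, -0.71 (0.459) at a mean CPM of 1.06 and 1.75. Per length, Itgb8 lay at 9.26 CPM per kilobase, between Itgb1 and Itgav.

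Of 23 partners of fibronectin in the matrix, none passed edgeR's test (1 at an unadjusted p under 0.05), 14 had fitted values below 0 and the median was -0.053. The fibrillar collagen genes Col1a2 and Col1a1 had log2 fold changes of -0.25 (adjusted p = 0.123 from edgeR) and -0.22 (0.428), and Col6a2 had -0.28 (0.432). Col1a2 did not overlap between the diets, at 35.0 to 41.3 CPM on the low-Mn diet and 43.8 to 49.1 CPM on the normal-Mn diet. Of the 23 partners, 2 were lower on the low-Mn diet without overlap and 1, Tnc, was higher. Over all tested genes these shares were 8.32% and 8.79%. Col1a1, Col1a2, Col3a1 and Dcn of this list are also among the markers of meninges and fibroblasts. The matricellular gene Tnc had 0.17 (0.434).

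Of 24 other ligands of integrins, none passed edgeR's test (5 at an unadjusted p under 0.05) and the median was -0.062. Ccn2, a connective tissue growth factor gene, had 11.7 ± 1.36 CPM on the low-Mn and 8.02 ± 0.886 on the normal-Mn diet (log2 fold change 0.54, adjusted p = 0.0791 from edgeR). It overlaps a gene on the opposite strand over 23.2% of its exons and is uncertain. Spp1, which encodes osteopontin, had 23.4 ± 2.82 and 31.0 ± 5.58 (-0.40, adjusted p = 0.118). Spp1 is uncertain too, as another gene overlaps 18.8% of its exon bases and 11.6% of its 50-base stretches occur elsewhere. The basement membrane genes Lama4 and Hspg2 had -0.57 (0.188) and -0.35 (0.202), and neither overlapped between the diets. Of the 24 ligands, 3 were lower on the low-Mn diet without overlap and 3 were higher, Ccn2 among the latter. Over all tested genes these shares were 8.32% and 8.79%.

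Of 41 tested adaptors and kinases of focal adhesions, the contacts at which integrins meet actin, none passed edgeR's test (3 at an unadjusted p under 0.05), 25 had fitted values below 0 and the median was -0.04. The smallest p belonged to Tns2 (log2 fold change -0.20, adjusted p = 0.357 from edgeR), Actn4 (-0.11, 0.366), Zyx (-0.12, 0.412) and Arhgef7 (0.093, 0.429). Of 41 regulators of actin filaments, Ezr alone passed, and 4 had an unadjusted p under 0.05, with a median of -0.02. After Ezr came Dstn, an actin depolymerizing factor (-0.14, adjusted p = 0.207), Arpc5 of the Arp2/3 complex (0.18, 0.238) and the nonmuscle myosin gene Myh9 (0.13, 0.29).

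**Figure D5:**
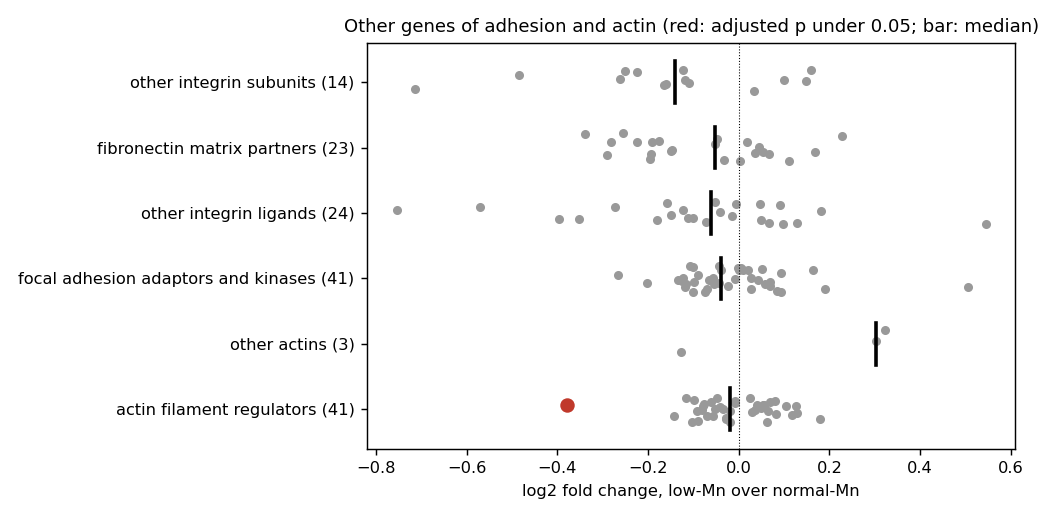
Fitted log2 fold change (low-Mn against normal-Mn) of every tested gene of 6 lists around the 10 genes, with the number tested in parentheses, black bars for the medians and red for an adjusted p under 0.05. The list medians lie between -0.14 and -0.02 except for the 3 other actins, at 0.30, and Ezr, at -0.38, is the single red point.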

How the data were processed

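The authors aligned reads with STAR. The submitters' processing notes list the build mm10 and, without versions, FastQC, STAR, RSEM and DESeq2. What the authors deposited are expected counts for each gene, with no normalization. Library totals ran from 14548336 to 21277469 counts. The 92 spike-in entries, all 0, were left out. Of 53715 genes, 53620 had a symbol in GENCODE M21 (GRCm38), from which positions, lengths and sequences were taken. The low-Mn columns carry a number alone and were assigned to the low-Mn replicate of that number. The labels name a directional kit, but not whether counting used strand.

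Expected counts were rounded, filtered by filterByExpr (minimum count 10, minimum total 15) and scaled by TMM factors. Diets were compared with glmQLFit and glmQLFTest of edgeR 4.0.16 (R 4.3.3), adjusting p-values by Benjamini-Hochberg across 16123 genes, with calls at 0.05, after the script was tested on simulated counts. Intervals are 95% intervals of that fit. Within-diet spread was taken on log2 CPM, at a prior count of 2. Alternatives were limma-voom (limma 3.58.1), DESeq2 1.42.0, other scaling and filters, unrounded counts, the replicate number as a block and each library left out. Within a diet, pairs of libraries differed by more than sampling noise (chi-square over its degrees of freedom, 3.61 to 7.59). The members, the gene lists and the naming rule were chosen with earlier results of these data known. Genes named are the 10 members, up to 4 genes of each list with the smallest p and those that passed, and the 5 genes most like Fn1 and Itgb1. Sequence sharing is the percent of a gene's 50-base stretches found in another annotated gene. One marker gene that the naming rule selects is not reported here.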

Additional observations from a re-analysis of the deposited data

How the results depend on the processing

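Of all genes 96 passed, against 424 unfiltered, 63 with limma-voom, 137 with DESeq2 and 37 to 93 when 1 library was left out, the lowest counts being 37, 45 and 47 for the fits lacking low-Mn replicate 2, normal-Mn replicate 2 and low-Mn replicate 1. No receptor passed in any of the 14 alternative fits, although Itga5, Itga8 and Itgb3 were too rare for the stricter filter and DESeq2 gave 4 receptors no adjusted p. Of the adhesion and actin genes 1 passed (Ezr), against 4 unfiltered (also Ccn2, Spp1 and Col1a2), 0 with limma-voom and 0 to 1 when 1 library was left out, where it was Spp1 in the fit lacking normal-Mn replicate 1 and Ezr in that lacking normal-Mn replicate 3. With the replicate number as a block, 128 genes, 0 receptors and 1 adhesion or actin gene passed. Same-numbered libraries deviated together at r = 0.0719, 0.00178 and 0.164, so the numbers were not taken as a pairing, and low-Mn replicates 1 and 2 each correlated more with a normal-Mn library of another number than with their own.

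Direction turned in Itga5, Itgb1 and the 5 genes most like Itgb1, none of which passed in any of these fits. Leaving out 1 library moved Itga5 over -0.45 to 0.097 and Itgb1 over -0.072 to 0.022. In such fits Zbtb24 ran from -0.17 to 0.091, Adck1 from -0.16 to 0.009, Cep85 from -0.065 to 0.04, Ipp from -0.11 to 0.077 and Sec22a from -0.063 to 0.058. With upper quartile scaling Ipp had -0.0086 and Sec22a -0.0023, and Ipp had -0.0052 unfiltered and -0.00073 with the stricter one. With the longest coding transcript as length, CPM per kilobase was 7.97 for Fn1, 1.66 for Itga4, 0.388 for Itga8, 9.22 for Itgav, 20 for Itgb1, 26.1 for Itgb5 and 296 for Actg1, since these lengths are shorter than the merged exons. With a prior count of 0.5 the within-diet SD of Fn1 was 0.138. For Itga5, Itga8 and Itgb3, at most 84 counts in a library limit what can be seen.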

Other observations

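The remaining marker lists give the setting of the tissue. Among 14 oligodendrocyte markers, 13 had a fitted value below 0 and 10 an unadjusted p under 0.05 (edgeR). For these counts and those below, no share of all genes is given. The gap junction gene Gjc3 fell (edgeR log2 fold change of -0.24, adjusted p = 0.0403), beside 0.18% of all tested genes that fell. This list too was chosen with earlier results known. Gjc3 passed in 1 of the 6 fits without 1 library and not with limma-voom (0.0548). The list had a median of -0.13 and a summed CPM of 7180 to 7480 on the low-Mn and 7670 to 8510 on the normal-Mn diet. None of 13 astrocyte and Bergmann glia markers passed edgeR's test (3 at an unadjusted p under 0.05), with sums of 4060 to 4190 and 4250 to 4390. None of 13 microglia and border macrophage markers passed either (3 at an unadjusted p under 0.05), with sums of 165 to 173 and 184 to 187. The oligodendrocyte, astrocyte and microglia sums were lower on the low-Mn diet without overlap. Single genes separated in this direction in 8.32% of those tested, and no such share was taken for sums. Lower marker sums were thus seen outside meninges and choroid plexus as well, and their differences were not tested. Granule neuron markers summed to 5820 to 5990 and 5690 to 6090, and Purkinje neuron markers to 9880 to 10300 and 9510 to 10100, with none of 10 in either list past the test (1 and 0 at an unadjusted p under 0.05). None of 5 red blood cell markers passed (0 at an unadjusted p under 0.05), at sums of 762, 330 and 494 in low-Mn replicates 1 to 3 and 556, 480 and 389 in normal-Mn replicates 1 to 3, which fell in the order of Fn1 within each diet.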
